A study of Schizosaccharomyces pombe with 9 samples.

Results

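The genes described here are those of the right end of chromosome II of the fission yeast Schizosaccharomyces pombe. They were taken as all rows of the deposited count table whose identifiers begin with SPBPB2B2., SPBC1289. or SPBCPT2R1., prefixes that name the clones sequenced there. This rule used position only, but it was chosen with earlier results of these data known. It gave 30 of the 4915 genes in the table: 11 SPBPB2B2 rows, 3 SPBCPT2R1 rows and 16 SPBC1289 rows. RefSeq's annotation of assembly ASM294v3 places all 30 on chromosome II, among the last 37 table genes before the right end. Another 13 annotated genes with these prefixes were not analysed here. The 30 form 2 blocks. The SPBPB2B2 and SPBCPT2R1 rows are the 14 nearest the end, from the helicase gene tlh2 to the permease gene nrg1. After 7 genes that are no members, the SPBC1289 rows follow inwards, from cao2 to chr4.

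Polyadenylated RNA was sequenced from log-phase cultures grown in YEA, a rich medium, at 32 °C. All 3 genotypes carried TetR-Mit1, in which Mit1, a chromatin remodeler, is joined to the Tet repressor. The group labelled clr4oe (tetrmit1_clr4oe) had TetR-Mit1 together with a clr4 modification, read here from the label as clr4 overexpression. This group was represented by 2 libraries. Its replicate 3 was not analysed here. The group K587A (tetr-mit1k587a) had the K587A substitution in the ATPase domain of Mit1 and had 3 libraries, and TetR-Mit1 alone also had 3. Each genotype comes from a single strain number, so a difference between genotypes cannot be told apart from a difference between strains. Nothing in the labels says that the replicates were separate cultures, so the p-values measure only the spread between these libraries.

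Chromosome ends of this yeast are packaged as heterochromatin. Clr4 methylates histone H3 on lysine 9, Swi6 and Chp2 bind the mark, and the SHREC complex, which holds the remodeler Mit1 and the histone deacetylase Clr3, acts on the marked chromatin to keep its genes silent. Next to the telomere lie the tlh genes, which encode RecQ-type helicases and belong to a family of near-identical subtelomeric copies. Further inwards at the right end of chromosome II stands a cluster for galactose use. Its genes gal1, gal7 and gal10 encode the enzymes of the Leloir pathway, which turns galactose into glucose phosphate.

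Total counts ran from 10367168 to 15920802 per library, and expression is given as CPM, read counts brought to a common library size with TMM scaling between libraries. The gene clr4 was at 279 ± 7.70 CPM in clr4oe (SD, n = 2), 58.1 ± 2.49 CPM in K587A and 56.1 ± 4.08 CPM in TetR-Mit1 (SD, n = 3 each). Mit1 itself was at 350 ± 9.16 CPM in clr4oe (SD, n = 2), 534 ± 14.2 CPM in K587A and 386 ± 6.72 CPM in TetR-Mit1 (SD, n = 3 each). The clr4 values go with the label clr4oe, while counts per gene cannot show the K587A substitution. Both genes overlap other annotated genes, clr4 with meu6 and mit1 with nbr1.

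Of the 30 genes, 28 had enough reads to be tested. SPBCPT2R1.01c had 0 counts in every library. For counting error alone, 0 counts allow up to 3, or 0.188 to 0.289 CPM before TMM scaling. Those values do not limit its expression if reads with several matching places were left out, because all of its windows are shared. SPBPB2B2.19c had 3 and 6 counts in clr4oe, 10, 7 and 2 in K587A, and 5, 7 and 2 in TetR-Mit1, too few for a comparison. Sequence shared with other places limits the rows nearest the end. In ASM294v3, 100% of the 50-base windows in the exons of these 2 genes also occur elsewhere in the genome, as do 93.3% of those of tlh2 and 90.4% of those of SPBCPT2R1.04c. The counts of these 4 rows therefore depend on how reads with several matching places were treated, which the submitters' notes do not state. The columns carry the suffix of STAR's gene counts, which hold only reads with a single match. On that reading these 4 rows may miss reads. None of the windows of the other 26 genes occurs outside its own gene. Many members overlap annotated long non-coding RNAs, among them tlh2, pan5, nrg1 and SPBC1289.14, while gal7, gal10 and SPBPB2B2.06c do not. What these RNAs add to the counts was not tested.

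In clr4oe, the genes nearest the chromosome end were lower than in TetR-Mit1 almost throughout, and the exception was tlh2, which was higher. Among the 12 tested genes of the outer block, 11 fell and 1 rose. Counted over both blocks, 20 of the 28 had an adjusted p under 0.05 in edgeR's quasi-likelihood test, against a background of 65.1% of all tested genes, so the share of calls by itself was near that of the genome. The direction and size differed more: 17 members were lower and 3 higher, where 33% of all tested genes were lower and 32.1% higher. Falls of at least 2-fold were found in 13 of the 28, against 3.07% of all tested genes, and a rise of that size in 1, against 1.25%. In either direction that made 14 members, against 4.32%. The median log2 fold change was -1.49 in the outer block, -0.10 in the SPBC1289 block and -0.00 over all 4887 tested genes.

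In K587A the outer block changed less, and members of both blocks moved in both directions. The median absolute log2 fold change of the outer block was 1.58 in clr4oe and 0.51 in K587A, and that of the SPBC1289 block was 0.13 in clr4oe and 0.14 in K587A. Over all tested genes it was 0.22 in clr4oe and 0.14 in K587A. Of the 28 tested members 21 passed the threshold, 13 lower and 8 higher than in TetR-Mit1, against a background of 52.3% of all tested genes, 25% lower and 27.3% higher. Changes of at least 2-fold were found in 2 members, against 1.8% of all tested genes. Both were falls, of tlh2 and SPBC1289.14, against 1.41% of all tested genes, and no member rose that far, against 0.389%. The median log2 fold change was -0.51 in the outer block and 0.03 in the SPBC1289 block, against 0.01 over all tested genes.

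Set directly against K587A, clr4oe had 22 members lower and 3 higher, 25 of 28 in all, against 71.7% of all tested genes, 36.4% lower and 35.4% higher. Falls of at least 2-fold were found in 8 members, against 4.11% of all tested genes, and tlh2 alone among the members rose that far, against 3.68%. Together these were 9 members, against 7.8%. This comparison is the test of whether clr4oe and K587A differ, since their separate comparisons share the TetR-Mit1 libraries.

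**Figure D1:**
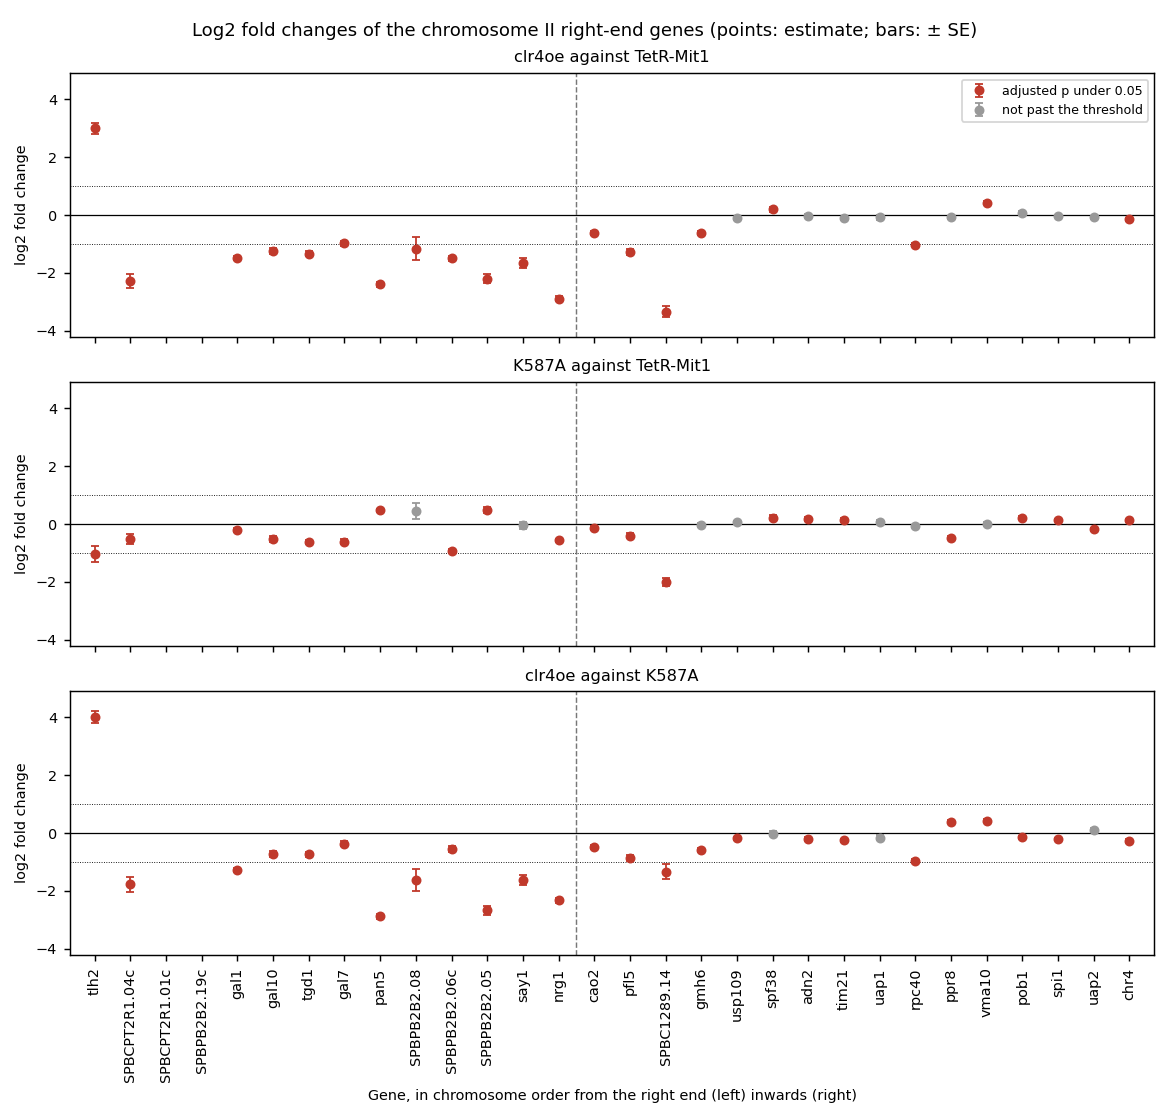
Log2 fold changes (vertical axis) of the 30 genes in chromosome order, with the right end of chromosome II at the left, for clr4oe against TetR-Mit1, K587A against TetR-Mit1 and clr4oe against K587A. Points are edgeR estimates with SE bars, red where the adjusted p is under 0.05 and grey where not, dotted lines mark 2-fold changes, the dashed line marks the 7 genes between the blocks, and the 2 untested genes have no point. In the top panel all tested genes from SPBCPT2R1.04c to gmh6 lie below 0, tlh2 lies at 2.99, and most genes from usp109 inwards lie near 0.

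The galactose genes fell together, most in clr4oe and less in K587A. Galactokinase, the product of gal1, phosphorylates galactose in the first step of the pathway. The gene gal1 was at 25.0 and 24.4 CPM in the clr4oe libraries, at 61.1, 60.6 and 57.9 CPM in K587A, and at 73.4, 66.7 and 68.1 CPM in TetR-Mit1. The 3 groups did not overlap, and the clr4oe libraries stood furthest from the rest. Its level in clr4oe was 35.6% of that in TetR-Mit1 (log2 fold change -1.49, SE 0.07, adjusted p = 5.62e-15 by edgeR), and in K587A it was 86.5% (log2 fold change -0.21, SE 0.06, adjusted p = 0.00419 by edgeR).

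The gene gal7 encodes the uridylyltransferase that moves UMP from UDP-glucose to galactose phosphate. It was at 21.2 and 21.3 CPM in clr4oe, at 28.2, 27.6 and 25.8 CPM in K587A, and at 41.3, 41.0 and 42.3 CPM in TetR-Mit1. Both other genotypes lay below every TetR-Mit1 library, and here K587A stood closer to clr4oe than to TetR-Mit1. The log2 fold change against TetR-Mit1 was -0.97 ± 0.09 (SE) in clr4oe and -0.61 ± 0.07 (SE) in K587A (adjusted p = 4.21e-10 and 1.98e-07 by edgeR). The direct difference between clr4oe and K587A was -0.36 ± 0.09 on the log2 scale (SE, adjusted p = 0.00104 by edgeR), against -1.28 ± 0.08 for gal1 (SE, adjusted p = 7.68e-14 by edgeR).

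Between gal1 and gal7 lie gal10, whose product is the epimerase that regenerates UDP-glucose, and tgd1, annotated as a nucleotide-sugar 4,6-dehydratase. Both are annotated on opposite strands of the same stretch, and the strand setting of the counting is not given in the sources used here, so their counts cannot be told apart with certainty. Gal10 was at 20.4 and 19.6 CPM in clr4oe, at 34.99, 30.2 and 34.4 CPM in K587A, and at 45.2, 54.9 and 42.1 CPM in TetR-Mit1. The values for tgd1 were 20.9 and 18.6 CPM in clr4oe, 34.1, 31.6 and 32.9 CPM in K587A, and 48.0, 52.3 and 50.1 CPM in TetR-Mit1. For both genes the 3 groups stood in the same order without overlap. In clr4oe gal10 was at 42.3% and tgd1 at 39.4% of TetR-Mit1, and in K587A gal10 was at 70.0% and tgd1 at 65.6%. All of these differences passed the threshold, with edgeR adjusted p-values from 1.03e-12 to 2.75e-05.

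A second group, pan5 and SPBPB2B2.05, moved in opposite directions in the other genotypes. The product of pan5 is a 2-dehydropantoate 2-reductase, an enzyme of pantothenate synthesis, the route to coenzyme A. Its expression was 11.8 and 13.2 CPM in clr4oe, 94.6, 85.6 and 95.1 CPM in K587A, and 67.0, 64.9 and 65.3 CPM in TetR-Mit1. Every clr4oe library was far below, and every K587A library above, all TetR-Mit1 libraries. Pan5 fell to 19.0% of TetR-Mit1 in clr4oe (log2 fold change -2.39, SE 0.09, adjusted p = 6.72e-18 by edgeR) and rose 1.39-fold in K587A (log2 fold change 0.48, SE 0.06, adjusted p = 1.14e-07 by edgeR).

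SPBPB2B2.05, annotated as a protein of the class I glutamine amidotransferase family, had the same order. It stood at 3.72 and 4.15 CPM in clr4oe, at 25.5, 25.2 and 24.6 CPM in K587A, and at 16.6, 18.3 and 19.2 CPM in TetR-Mit1. The groups did not overlap. It fell to 21.9% of TetR-Mit1 in clr4oe (log2 fold change -2.19, SE 0.15, adjusted p = 1.96e-12 by edgeR) and rose 1.39-fold in K587A (log2 fold change 0.48, SE 0.10, adjusted p = 0.000196 by edgeR). Directly compared, clr4oe was below K587A by log2 fold changes of -2.87 ± 0.08 for pan5 and -2.67 ± 0.14 for SPBPB2B2.05 (SE, adjusted p = 5.46e-20 and 1.12e-14 by edgeR). The only other member higher in K587A and lower in clr4oe was chr4, at the inner edge of the region, with much smaller changes.

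The remaining genes of the outer block that have unique sequence were also lower in clr4oe. The gene nrg1, annotated as an amino-acid permease, was at 10.7 CPM in both clr4oe libraries, at 51.1, 55.2 and 55.2 CPM in K587A, and at 74.9, 79.9 and 83.1 CPM in TetR-Mit1. It showed the lowest ratio of the outer block, with clr4oe at 13.5% of TetR-Mit1 (log2 fold change -2.89, SE 0.09, adjusted p = 3.07e-19 by edgeR). In K587A nrg1 was at 67.9% (log2 fold change -0.56, SE 0.06, adjusted p = 2.24e-08 by edgeR).

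SPBPB2B2.06c, annotated as a phosphoprotein phosphatase, fell in both genotypes, further in clr4oe. Its values were 23.0 CPM in both clr4oe libraries, 31.8, 34.4 and 34.9 CPM in K587A, and 69.6, 58.4 and 65.3 CPM in TetR-Mit1. No library of either genotype reached the TetR-Mit1 range. Clr4oe was at 35.7% of TetR-Mit1 (log2 fold change -1.49, SE 0.09, adjusted p = 1.18e-13 by edgeR) and K587A at 52.1% (log2 fold change -0.94, SE 0.07, adjusted p = 5.59e-11 by edgeR). Set directly against K587A, clr4oe was lower too (log2 fold change -0.55, SE 0.09, adjusted p = 1.04e-05 by edgeR). Among the members with unique sequence this was the second-largest fall in K587A after SPBC1289.14.

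Say1, annotated as a sterol deacetylase, and the uncharacterized SPBPB2B2.08 were lower in clr4oe and did not pass the threshold in K587A. Say1 was at 5.37 and 4.44 CPM in clr4oe, at 12.7, 18.4 and 14.0 CPM in K587A, and at 14.4, 16.7 and 15.9 CPM in TetR-Mit1. The K587A libraries spread over the whole TetR-Mit1 range (log2 fold change -0.04, SE 0.13, adjusted p = 0.794 by edgeR), while clr4oe lay below it (log2 fold change -1.67, SE 0.18, adjusted p = 9.25e-09 by edgeR).

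SPBPB2B2.08 was weakly expressed, at 1.52 and 0.716 CPM in clr4oe, 2.94, 4.72 and 2.34 CPM in K587A, and 2.78, 2.76 and 2.07 CPM in TetR-Mit1. Its log2 fold change of -1.17 ± 0.40 (SE, adjusted p = 0.0138 by edgeR) in clr4oe rested on 22 and 10 counts. Without clr4oe replicate 2 it was -0.73 and no longer passed the threshold (adjusted p = 0.182 by edgeR). In K587A replicate 2 the genes say1, SPBPB2B2.08 and pfl5 each had their highest K587A value, as did nrg1, cao2, adn2, rpc40 and ppr8. For nrg1, K587A replicate 3 was nearly equal, both at 55.2 CPM. All other tested members had their highest K587A value in replicate 1 or 3.

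**Figure D2:**
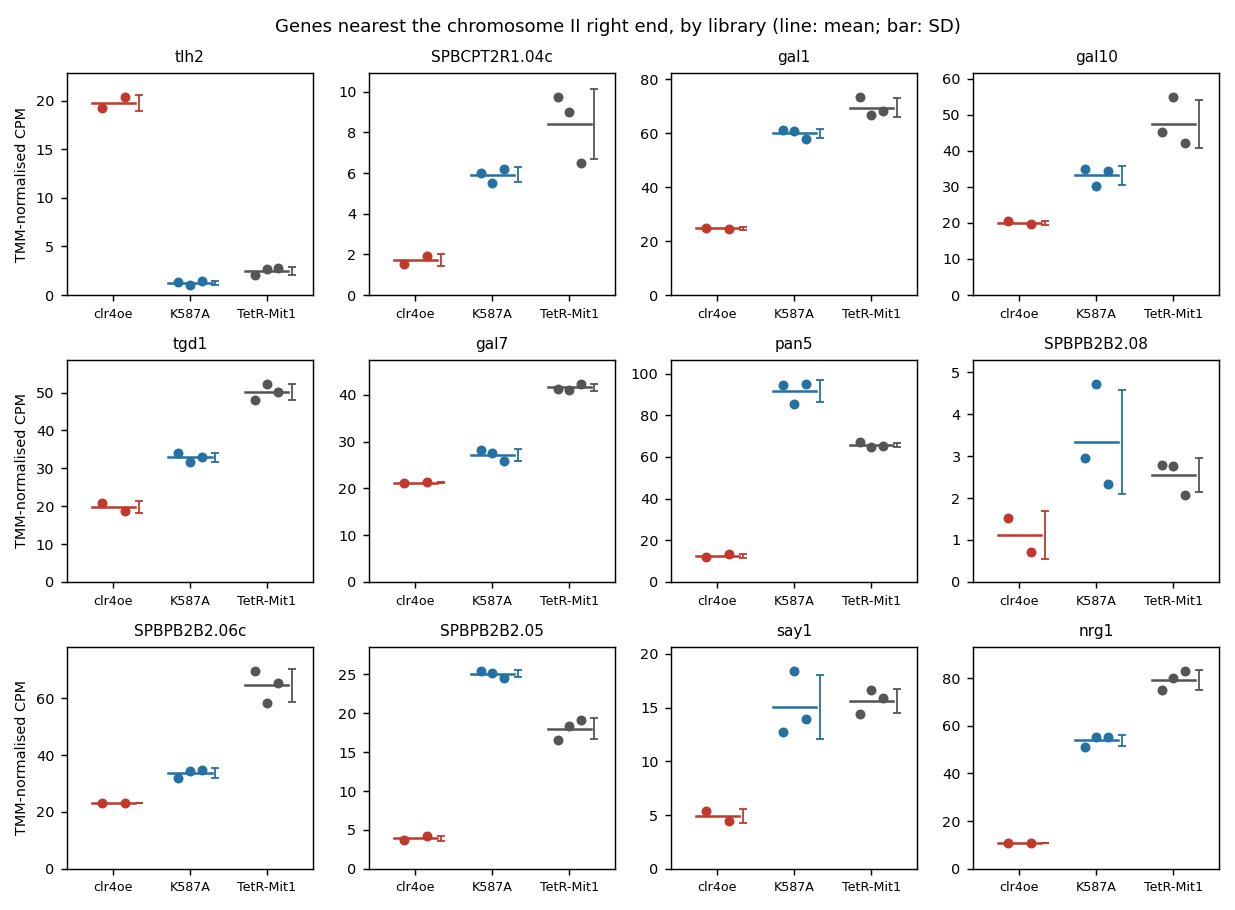
TMM-normalised CPM (vertical axis, from 0) of the 12 tested genes of the outer block in each library of clr4oe, K587A and TetR-Mit1. Points are libraries, horizontal lines group means and side bars the SD. The clr4oe points are lowest in every panel except that of tlh2, where they lie at 19.2 and 20.4 CPM, and K587A is highest for pan5 and SPBPB2B2.05.

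The outermost genes moved apart from each other in clr4oe. The helicase gene tlh2 (SPBCPT2R1.08c) was at 19.2 and 20.4 CPM in clr4oe, at 1.30, 0.984 and 1.43 CPM in K587A, and at 2.017, 2.69 and 2.74 CPM in TetR-Mit1. The clr4oe libraries stood far above both other groups, and K587A lay below TetR-Mit1. These values rest on 279 and 285 counts in clr4oe, on 19, 15 and 14 in K587A, and on 29, 37 and 41 in TetR-Mit1. Tlh2 was 7.95-fold higher in clr4oe than in TetR-Mit1 (adjusted p = 1.19e-13 by edgeR) and fell to 49.0% of TetR-Mit1 in K587A (adjusted p = 0.00336 by edgeR). Because 93.3% of its windows are shared, the counts of tlh2 may rest on a small part of its sequence. They cannot be assigned with certainty to a single copy of the family.

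The next gene inwards, SPBCPT2R1.04c, whose protein is uncharacterized, was at 1.52 and 1.93 CPM in clr4oe, at 6.03, 5.51 and 6.22 CPM in K587A, and at 9.74, 9.02 and 6.49 CPM in TetR-Mit1. It thus fell where tlh2 rose. Clr4oe was at 20.6% of TetR-Mit1 (log2 fold change -2.28, SE 0.25, adjusted p = 1.69e-08 by edgeR). The fall in K587A was small (log2 fold change -0.51, SE 0.17, adjusted p = 0.0165 by edgeR). It lost significance without TetR-Mit1 replicate 1 (adjusted p = 0.11 by edgeR), without TetR-Mit1 replicate 2 (adjusted p = 0.068 by edgeR) and without K587A replicate 2 (adjusted p = 0.0638 by edgeR).

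The SPBC1289 block divided into an outer and an inner stretch, a division made after its values were seen. The 4 genes on the side of the chromosome end, cao2, pfl5, SPBC1289.14 and gmh6, were all lower in clr4oe than in TetR-Mit1. The largest fall of the whole region in either genotype was that of SPBC1289.14, annotated as an adducin, a family of proteins that bind the actin and spectrin skeleton in animals. It was at 1.72 and 1.58 CPM in clr4oe, at 4.18, 3.67 and 4.89 CPM in K587A, and at 16.3, 18.0 and 16.0 CPM in TetR-Mit1. Neither genotype came near the TetR-Mit1 libraries, and clr4oe lay below K587A.

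SPBC1289.14 was thus at 9.88% of TetR-Mit1 in clr4oe and at 24.9% in K587A, with log2 fold changes of -3.34 ± 0.20 and -2.00 ± 0.15 (SE, adjusted p = 2.41e-13 and 2.24e-11 by edgeR). The clr4oe value rests on 25 and 22 counts. Clr4oe was also below K587A (log2 fold change -1.33, SE 0.26, adjusted p = 5.43e-05 by edgeR).

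Its neighbour pfl5, which encodes a glycoprotein of the flocculin-like cell-surface family, was at 15.3 and 14.6 CPM in clr4oe, at 24.2, 30.9 and 26.4 CPM in K587A, and at 36.1, 35.8 and 36.5 CPM in TetR-Mit1. The groups did not overlap. In clr4oe pfl5 was at 41.4% of TetR-Mit1 (log2 fold change -1.27, SE 0.11, adjusted p = 1.32e-10 by edgeR), and in K587A at 75.4% (log2 fold change -0.41, SE 0.09, adjusted p = 0.000379 by edgeR). Repeats within pfl5 itself make up 48.2% of its windows, none of them found outside the gene.

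Cao2, annotated as a copper amine oxidase-like protein, and gmh6, an alpha-1,2-galactosyltransferase that adds galactose to glycoproteins, fell by less in clr4oe. Cao2 averaged 47.3 ± 1.06 CPM in clr4oe (SD, n = 2), 65.8 ± 3.80 CPM in K587A and 72.6 ± 1.94 CPM in TetR-Mit1 (SD, n = 3 each). Gmh6 averaged 58.6 ± 3.46 CPM in clr4oe (SD, n = 2), 87.8 ± 4.71 CPM in K587A and 89.5 ± 2.063 CPM in TetR-Mit1 (SD, n = 3 each). Clr4oe was at 65.2% of TetR-Mit1 for cao2 and at 65.4% for gmh6 (adjusted p = 8.78e-09 and 3.45e-09 by edgeR). In K587A gmh6 did not pass the threshold (log2 fold change -0.03, SE 0.05, adjusted p = 0.629 by edgeR), and the log2 fold change of cao2, -0.13 ± 0.06 (SE, adjusted p = 0.0473 by edgeR), was lost in 4 of the 6 fits that each left out a library (adjusted p = 0.061 to 0.202 by edgeR), those without TetR-Mit1 replicate 1 or 3 or K587A replicate 1 or 3. The K587A call on cao2 was also lost under upper-quartile scaling and the replicate block (adjusted p = 0.0717 and 0.0521 by edgeR) and with DESeq2 (0.067). Gmh6 overlaps usp109 on the other strand.

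The 12 inner genes, from usp109 to chr4, are mostly genes of general cell function, and most of their changes were small. In clr4oe 2 were lower, 2 higher and 8 did not pass the threshold, where 65.1% of all tested genes passed. In K587A 2 were lower, 6 higher and 4 did not pass it, where 52.3% of all tested genes passed. The exception in size was rpc40, a subunit shared by RNA polymerases I and III. It was at 83.2 and 97.9 CPM in clr4oe, at 172, 178 and 176 CPM in K587A, and at 183, 186 and 186 CPM in TetR-Mit1. Clr4oe thus stood apart from both other genotypes, at 48.9% of TetR-Mit1 (log2 fold change -1.03, SE 0.05, adjusted p = 9.38e-15 by edgeR), whereas K587A did not pass the threshold (log2 fold change -0.08, SE 0.04, adjusted p = 0.14 by edgeR). The K587A libraries did lie slightly below every TetR-Mit1 library. With only these 2 groups in the fit, K587A passed the threshold (log2 fold change -0.09, SE 0.03, adjusted p = 0.0395 by edgeR).

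Vma10, a subunit of the vacuolar proton pump, was higher in clr4oe, at 108 and 102 CPM, against 83.5, 77.5 and 70.6 CPM in K587A and 83.5, 74.2 and 75.7 CPM in TetR-Mit1. K587A and TetR-Mit1 overlapped, and clr4oe lay above both (log2 fold change against TetR-Mit1 0.43, SE 0.06, adjusted p = 2.42e-06 by edgeR). Ppr8, a protein of the pentatricopeptide repeat family, changed in K587A, with 157 and 163 CPM in clr4oe, 118, 127 and 123 CPM in K587A, and 181, 162 and 165 CPM in TetR-Mit1. The K587A libraries were the lowest (log2 fold change against TetR-Mit1 -0.47, SE 0.05, adjusted p = 3.51e-09 by edgeR), while clr4oe did not pass the threshold against TetR-Mit1 (log2 fold change -0.08, SE 0.05, adjusted p = 0.161 by edgeR).

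The other 9 inner genes changed by smaller amounts. Spi1, the Ran GTPase of nuclear transport, had by far the highest counts of the region, with 1277 and 1301 CPM in clr4oe, 1498, 1444 and 1477 CPM in K587A, and 1342, 1332 and 1325 CPM in TetR-Mit1. Spi1 and pob1, a Boi-family protein of polarised growth, were higher in K587A than in TetR-Mit1 by log2 fold changes of 0.14 ± 0.03 and 0.22 ± 0.04 (SE, adjusted p = 0.000524 and 9.92e-05 by edgeR). So were adn2, a transcription factor, at 0.17 ± 0.05, and tim21, a subunit of the mitochondrial import machinery, at 0.14 ± 0.05 (SE, adjusted p = 0.00675 and 0.0343 by edgeR). Tim21 overlaps adn2 and uap1, which limits its counts, and its call was lost in 5 of 6 fits (adjusted p = 0.0516 to 0.147 by edgeR), all but that without TetR-Mit1 replicate 2. With DESeq2 the tim21 call was lost as well (adjusted p = 0.0774). Directly against K587A, 36.4% of all tested genes were lower in clr4oe and 35.4% higher. Of the 12 inner genes 7 were lower, rpc40, usp109, adn2, tim21, pob1, spi1 and chr4, and 2 were higher, ppr8 and vma10. Of these, pob1 (adjusted p = 0.162 by edgeR) and adn2 (0.051) lost the call without clr4oe replicate 2. Usp109 lost it without K587A replicate 3 or either clr4oe library (adjusted p = 0.0519 to 0.0724 by edgeR).

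The spliceosome genes of the block did not move as a group. In K587A spf38, of the U5 particle, was higher (log2 fold change 0.23, SE 0.08, adjusted p = 0.0172 by edgeR) and uap2, associated with the U2 particle, lower (log2 fold change -0.18, SE 0.05, adjusted p = 0.0054 by edgeR). Usp109, associated with the U1 particle, did not pass the threshold against TetR-Mit1 in clr4oe (log2 fold change -0.12) or K587A (0.06). Nor did uap1 (-0.08 in clr4oe and 0.07 in K587A), a predicted enzyme of UDP-N-acetylglucosamine synthesis. Spf38 was also higher in clr4oe (log2 fold change 0.20, SE 0.09, adjusted p = 0.0424 by edgeR). Chr4, annotated as a regulatory factor of cell-wall glucan synthase, was lower in clr4oe (log2 fold change -0.15, SE 0.06, adjusted p = 0.0335 by edgeR) and higher in K587A (0.13, SE 0.05, adjusted p = 0.0457 by edgeR). In clr4oe the call on spf38 was lost in 4 of 5 fits (adjusted p = 0.0534 to 0.233 by edgeR), all but that without TetR-Mit1 replicate 2, and that on chr4 without TetR-Mit1 replicate 3 or clr4oe replicate 2 (0.108 and 0.451). In K587A the call on spf38 was lost without TetR-Mit1 replicate 1 or 3 or K587A replicate 3 (adjusted p = 0.0523 to 0.126 by edgeR), and that on chr4 without replicate 1 or 2 of either genotype (0.0763 to 0.164). The clr4oe call on spf38 was also lost under upper-quartile scaling and the replicate block (adjusted p = 0.126 and 0.0875 by edgeR) and with DESeq2 (0.0563). The K587A call on chr4 was also lost with median-of-ratios scaling and with at least 10 counts required in every library (adjusted p = 0.0592 and 0.0659 by edgeR). DESeq2 did not call it either (adjusted p = 0.102).

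**Figure D3:**
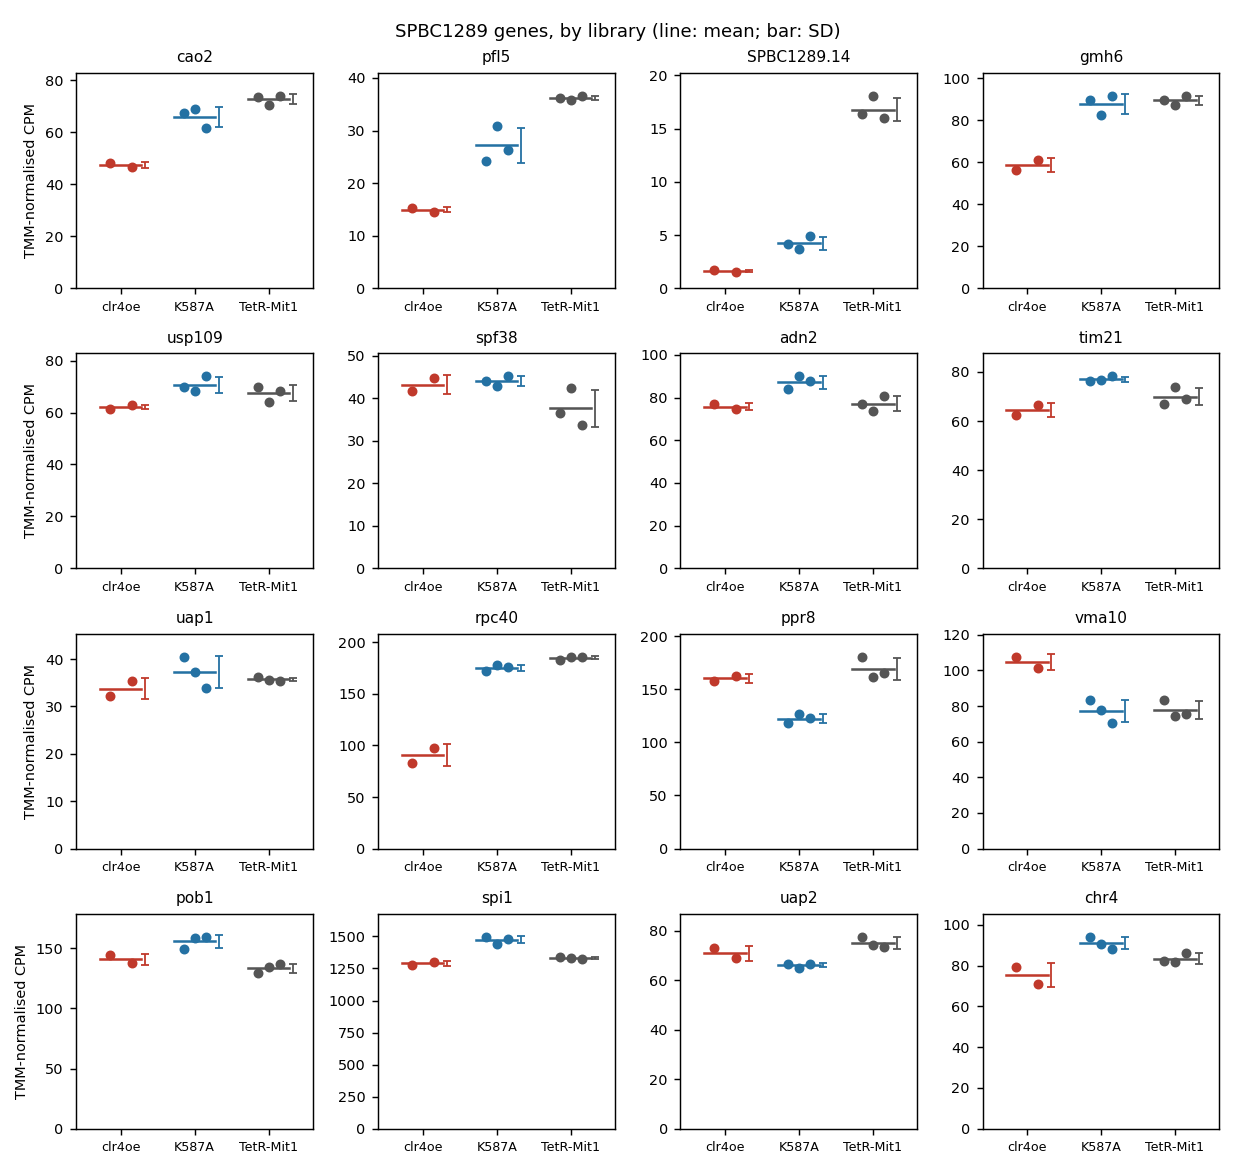
TMM-normalised CPM (vertical axis, from 0) of the 16 SPBC1289 genes in each library of clr4oe, K587A and TetR-Mit1, ordered from the side of the chromosome end inwards. Points are libraries, horizontal lines group means and side bars the SD. Clr4oe is lowest for cao2, pfl5, SPBC1289.14, gmh6 and rpc40 and, by less, for usp109, tim21, spi1 and chr4. It is highest for vma10, and K587A is lowest for ppr8 and, by less, for uap2.

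Seen along the chromosome, the tested members from SPBCPT2R1.04c to gmh6 were each lower in clr4oe, a stretch whose ends were set by these clr4oe values. From usp109 inwards rpc40 and chr4 were called lower in clr4oe. Under upper-quartile scaling spi1, ppr8, tim21 and usp109 were called lower there as well (adjusted p = 0.0162 to 0.0263 by edgeR), and the call on chr4 was lost with DESeq2 (adjusted p = 0.0694). The stretch was not unbroken, because of the 7 genes between the blocks, which are no members, 4 were lower and 3 higher in clr4oe, with log2 fold changes from -1.27 to 1.36. Among all tested genes 33% were lower and 32.1% higher in clr4oe against TetR-Mit1. Over the 28 tested members, Spearman's rho between a gene's rank from the chromosome end and its log2 fold change was 0.56 for clr4oe, 0.41 for K587A, both against TetR-Mit1, and 0.53 for clr4oe against K587A. Without tlh2 these values were 0.73, 0.35 and 0.71. They are descriptions only, since neighbouring genes are not independent and the points share the same libraries.

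Of the 10 genes from nrg1 to gal1, all were lower in clr4oe than in TetR-Mit1 and than in K587A, and in both comparisons none of their groups overlapped. Among all tested genes 33% were lower in clr4oe against TetR-Mit1 and 36.4% against K587A. Over all 28 tested members the libraries did not overlap in 25 for clr4oe against TetR-Mit1, in 22 for K587A against TetR-Mit1 and in 26 for clr4oe against K587A. Non-overlap was also common over all tested genes, at 74.9%, 58.7% and 79.2% in the same order. The levels of these 10 genes in clr4oe ranged from 13.5% to 51.1% of those in TetR-Mit1. In K587A 6 of the 10 were lower, 2 higher and 2 not past the threshold, with levels from 52.1% to 139% of those in TetR-Mit1. Of all tested genes 25% were lower and 27.3% higher in K587A.

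Levels were compared between genes as CPM per kilobase of exon, using exon lengths from the same annotation. In TetR-Mit1 the outer block ran up to 44.5 CPM per kilobase, with a median of 14.3, and the SPBC1289 block up to 1491, with a median of 36.8. In the other genotypes the medians of the outer block were 4.46 CPM per kilobase in clr4oe and 9.71 in K587A, and those of the SPBC1289 block were 34.5 in clr4oe and 38.2 in K587A. The outer medians are over 14 rows, including the 4 of mostly shared sequence, whose counts may understate their levels. They also include gal10 and tgd1, which overlap. Pan5 was the most highly expressed gene of the outer block in K587A, at 62.1 ± 3.60 CPM per kilobase, and in TetR-Mit1, at 44.5 ± 0.756 (SD, n = 3 each), while in clr4oe gal7 was, at 14.5 ± 0.0168 (SD, n = 2). In TetR-Mit1 nrg1 and gal1 followed, at 36.9 ± 1.93 and 35.1 ± 1.79 CPM per kilobase (SD, n = 3 each), which do not differ beyond their spread. In clr4oe nrg1 was at 4.99 ± 0.0184 CPM per kilobase (SD, n = 2), below gal10 and tgd1.

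**Figure D4:**
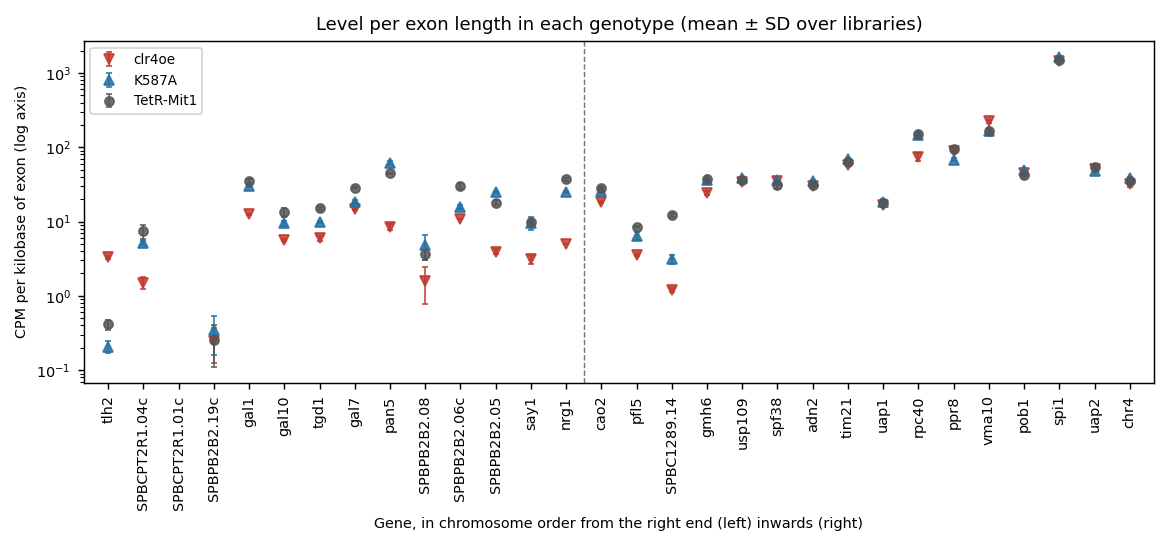
Mean expression as CPM per kilobase of exon (vertical log axis) of each gene in clr4oe, K587A and TetR-Mit1, in chromosome order from the right end, with bars for the SD over libraries. The dashed line marks the 7 genes between the blocks, and SPBCPT2R1.01c, with 0 counts, has no point. The 3 symbols nearly coincide for most genes from usp109 inwards and lie apart for tlh2, pan5, SPBPB2B2.05, nrg1 and SPBC1289.14.

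For context, 24 genes of the silencing and telomere machinery and 10 genes of hexose uptake and carbon metabolism were counted in the same fit. Of the machinery genes, 8 were lower and 5 higher in clr4oe, where 33% of all tested genes were lower and 32.1% higher. In K587A 2 were lower and 4 higher, where 25% of all tested genes were lower and 27.3% higher. All are against TetR-Mit1. These counts include clr4 and mit1, the genes the genotypes are built on. In clr4oe, clr4 was among the higher (log2 fold change 2.31) and mit1 among the lower (-0.14). In K587A, mit1 was among the higher (0.47). The median log2 fold change of the list was 0.01 in clr4oe and 0.03 in K587A. Of the hexose genes, read against the same shares, 2 were lower and 6 higher in clr4oe, and 9 were lower and none higher in K587A, with a median of 0.20 in clr4oe and -0.34 in K587A. Gal1, gal7 and gal10 at the right end were lower in both genotypes.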

How the data were processed

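Raw read counts per gene were deposited by the authors as a single table. Column names carry STAR's suffix ReadsPerGene.out, per the file headers, and the submitters' processing notes list STAR, SAMtools, DESeq2 and the build ASM294v2. Versions, annotation and strand setting are not given in the sources used here. Nor is the treatment of reads with several matches, apart from that suffix, which belongs to counts of reads with a single match. The 8 library columns were matched to samples by the library letter in the labels. Symbols (4906 of 4915 identifiers, all 30 members), gene order, overlaps, exon lengths and shared 50-base windows came from RefSeq ASM294v3, and since the builds differ no coordinates or sequences are given.

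Counts were tested with edgeR 4.0.16 in R 4.3.3: filterByExpr (4887 genes kept), TMM scaling, and the quasi-likelihood F test with genotype as the only factor in a single fit of all 8 libraries. P-values were adjusted by Benjamini-Hochberg over all tested genes, with a threshold of 0.05. SE is the absolute log2 fold change divided by the square root of F. The design was written for 9 libraries and kept with 8. The procedure was tested on simulated data. Libraries of a genotype differed by more than counting noise (chi-square per degree of freedom 2.75 to 6.08), so none was treated as a library deposited again. This does not show that they came from separate cultures. Floors and depth cover counting error only.

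Members are given gene by gene, with values per library where a change reached 2-fold or the selection names the gene, and for a few others chosen after their values were seen. Members and lists were chosen with earlier results of these data known. Alternatives were other scaling (median of ratios, upper quartile), DESeq2 1.42.0, other filters, thresholds and samples in the fit, the replicate number as a block, and leaving out single libraries.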

Additional observations from a re-analysis of the deposited data

How the results depend on the processing

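Counts of members called moved by more than 1.5 times only where a change of at least 2-fold was also required. It left 2 members in K587A (against TetR-Mit1) and 9 in clr4oe set against K587A. Over all genes it left 88 in K587A and 211 in clr4oe, both against TetR-Mit1, and 381 in clr4oe set against K587A. Leaving out single libraries gave 17 to 20 members in clr4oe and 16 to 19 in K587A, both against TetR-Mit1, and 22 to 25 in clr4oe set against K587A. Leaving out a clr4oe library leaves 1, which is then assumed to vary like the other groups. DESeq2 called 18, 18 and 25 members in these comparisons. With the replicate number as a block, 19, 20 and 25 members were called, 1 fewer in each of the first 2 comparisons. Same-numbered libraries deviated together with correlations of only -0.0978 to 0.0965, so the number was not taken to pair them. Upper-quartile scaling called 21 members lower and 2 higher in clr4oe against TetR-Mit1. Sign changes were limited to log2 fold changes near 0 that passed no threshold. Against TetR-Mit1 in K587A, vma10 was 0.0084 under upper-quartile scaling. It ran from -0.064 to 0.050 when single libraries were left out, and was above 0 without TetR-Mit1 replicate 1 (0.050) or K587A replicate 3 (0.049). Say1 ran from -0.236 to 0.077 and was above 0 without TetR-Mit1 replicate 2 (0.00097) or K587A replicate 1 (0.077). Gmh6 ran from -0.059 to 0.013, above 0 without K587A replicate 2. In clr4oe against TetR-Mit1, adn2 ran from -0.063 to 0.0045, above 0 without TetR-Mit1 replicate 3. In clr4oe against K587A, spf38 ran from -0.060 to 0.026, above 0 without clr4oe replicate 1. The cause was not tested. The low counts of tlh2 in K587A and of SPBPB2B2.08 limit how closely their changes can be sized.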
